A study of Homo sapiens with 6 samples.

Results

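The genes described here are the 4 tropomyosin genes (TPM1, TPM2, TPM3 and TPM4), the actin genes ACTA2, ACTB and ACTG1, the actin-binding genes TAGLN and CNN1, and the myosin light chain gene MYL9. They were chosen by gene symbol, as a family with known roles, after results of the same comparison had been seen. The 10 genes are among 30618 genes with counts, and 9 of them are among the 16749 genes that passed a filter on low counts, the exception being CNN1. Because of how they were chosen, the differences of these 10 genes between the groups are given as a description, with no p-value, and the limits that some of them passed in the fit over all genes support nothing here. RNA-seq was performed on ARPE-19 cells, an established human line of retinal pigment epithelium, the cell layer that supports the photoreceptors. Both groups were kept in 50 mM glucose, so that a shared high-glucose state underlies every value, and no library from cells in normal glucose was analysed here. The NC group received a negative control siRNA and the siEIF1 group an siRNA against EIF1, a factor that helps the ribosome select start codons, with 3 libraries from separate cultures in each group. A single siRNA sequence was used against EIF1, and the effect of losing EIF1 and other effects of that siRNA cannot be told apart.

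Actin filaments are built from cytoplasmic actins (ACTB and ACTG1) in every cell and from the smooth muscle isoform ACTA2 in contractile cells and in epithelial cells that take on a mesenchymal character. Tropomyosins are coiled-coil dimers that lie end to end along the filament, and each of their genes makes several isoforms that set which motor and severing proteins can reach it. Myosin II pulls on these filaments when its regulatory light chain is phosphorylated, and transgelin and calponin decorate them in smooth muscle.

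EIF1 was at 294.35, 281.08 and 281.28 FPKM (fragments scaled to gene length and library depth) in the NC libraries and at 24.28, 22.68 and 23.5 FPKM in the siEIF1 libraries. The siEIF1 mean was 8.22% of the NC mean, and EIF1 fell with a log2 fold change of -3.58 (SE 0.055, adjusted p = 1.08e-13 by the quasi-likelihood test of edgeR, with p-values adjusted over all tested genes after Benjamini and Hochberg). The libraries held between 26499929 and 31431479 counts, and the scaling factors between libraries, computed by the trimmed mean of M values (TMM), lay between 0.981 and 1.02. Of 11 markers of retinal pigment epithelium, 9 were listed with counts, and RPE65 and TTR were not. PMEL had a mean count of only 34.7. OTX2 was at 17.8 FPKM in NC and 18.7 in siEIF1, BEST1 at 66.0 and 52.0, and the pigment enzyme TYR was near 0 in both groups. Of the 8 tested markers 3 rose and 0 fell with TMM scaling, the keratins KRT18 (log2 fold change 0.25, edgeR adjusted p = 0.00442) and KRT8 (0.24, edgeR adjusted p = 0.0095), and the retinoid-binding RLBP1 (1.55, edgeR adjusted p = 0.00102), which was called from a mean of 30.7 counts. The share past an adjusted p of 0.05 was 37.5% of these 8 markers, against 20.6% of all tested genes. Among genes with a mean count of at least 500 it was 28.6%. The summed level of the listed markers lay between 2930 and 3090 CPM (counts scaled to the library total) in NC and between 2980 and 3420 CPM in siEIF1.

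TPM4 encodes a tropomyosin of non-muscle filaments, on chr19:16067021-16103002 (GRCh38, plus strand). It was at 11.84, 12.3 and 12.75 FPKM in the NC libraries and at 27.87, 27.33 and 26.87 FPKM in the siEIF1 libraries. The groups lay far apart, with means of 12.3 ± 0.455 and 27.36 ± 0.501 FPKM (SD, n = 3), and every siEIF1 library was above every NC library. On the count scale the log2 fold change was 1.17 (SE 0.049), a 2.26-fold difference, from counts of 4761, 5334 and 5372 against 13238, 12455 and 12018. Sorted by log2 fold change, TPM4 stood in position 5 among the 13383 tested genes with a mean count of at least 50. It was the only one of the 10 genes called, that is, differing by more than 2-fold in either direction at an adjusted p under 0.05, where 1.71% of all tested genes were called, 0.4% as higher and 1.31% as lower. On the log2 scale TPM4 lay 0.17 above the fold limit, and ACTA2, the nearest of the 10 genes beneath it, lay 0.34 under it.

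The 300 bases around the annotated starts of the genes (250 before and 50 after, RefSeq, GRCh38.p14) were searched on both strands for the CArG box, the motif that serum response factor binds in the promoters of many actin and contractile genes. Of the 10 genes, 7 had promoter entries, 12 promoters in all. The motif was found in 1 of the 3 promoters of TPM4 and in the promoter of ACTG1, and in 454 of all 35116 promoters (1.29%). The windows of both matches are shown, and the capitals mark the motif with 10 bases on each side.
TPM4 (chr19:16067355-16067384, plus strand): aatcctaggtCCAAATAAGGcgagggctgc
ACTG1 (chr17:81512874-81512903, minus strand): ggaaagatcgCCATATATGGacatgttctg
Counted from the annotated start of that RefSeq promoter, the motif began 173 bases before it in TPM4 and 94 bases before it in ACTG1. The gene spans given for TPM4 and ACTG1 begin further upstream, so both windows lie inside those spans. A match gives the letters of the window and does not show binding in these cells. The promoters of TPM1, TPM2, TPM3, ACTA2 and CNN1 held no match in these windows, which says nothing about the factor at those genes. ACTB, TAGLN and MYL9 had no promoter entry.

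The other tropomyosins differed less between the groups. TPM1, on chr15:63042620-63071915 (plus strand), gives rise to both muscle and non-muscle isoforms, and was at 56.29, 63.16 and 63.34 FPKM in NC and at 70.24, 72.55 and 69.68 FPKM in siEIF1. All 3 siEIF1 libraries were above all 3 NC libraries, with a log2 fold change of 0.24 (SE 0.059) that became -0.07 (SE 0.056) when counts were scaled to GAPDH. TPM2, on chr9:35681992-35690056 (minus strand), encodes beta-tropomyosin and was at 163.09, 176.04 and 172.36 FPKM in NC and at 199.72, 198.1 and 183.88 FPKM in siEIF1. The groups did not overlap, with a log2 fold change of 0.21 (SE 0.057) that became -0.10 (SE 0.051) under GAPDH scaling.

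TPM3, on chr1:154155308-154194648 (minus strand), encodes short cytoskeletal isoforms as well as a slow-muscle form. It was at 12.58, 10.98 and 11.87 FPKM in NC and at 11.17, 10.34 and 11.42 FPKM in siEIF1. The groups overlapped, and the log2 fold change was -0.09 (SE 0.054). TPM4 and TPM3 stood at like FPKM in NC and apart in siEIF1, whereas per kilobase of canonical transcript TPM4 was already above TPM3 in NC, at 75 ± 2.28 against 30.9 ± 2.02 CPM (SD, n = 3). In FPKM, the ratio of TPM4 to TPM3 within a library was 0.941, 1.12 and 1.07 in NC and 2.5, 2.64 and 2.35 in siEIF1. This ratio does not depend on the scaling between libraries. The ratio of TPM4 to TPM1 was 0.202 ± 0.0078 in NC and 0.386 ± 0.01 in siEIF1, and that of TPM4 to TPM2 was 0.0721 ± 0.0021 and 0.141 ± 0.0043 (SD, n = 3). In each of these ratios the groups did not overlap.

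**Figure D1:**
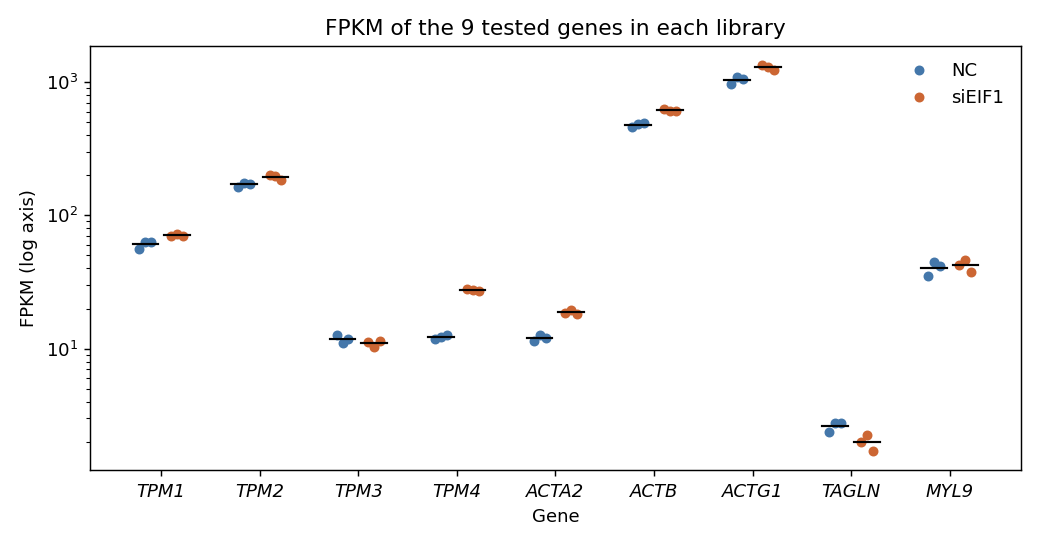
FPKM (log axis) of the 9 tested genes in each library, NC in blue and siEIF1 in orange, with a black line at each group's mean (n = 3). TPM4 has the widest gap between the groups, 12.3 against 27.36 FPKM on average, while the libraries of TPM3 and MYL9 overlap.

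As a share of the summed FPKM of the 4 tropomyosin genes, TPM4 was 4.86%, 4.69% and 4.9% in the NC libraries and 9.02%, 8.86% and 9.21% in the siEIF1 libraries. The mean share of TPM4 was 4.22 percentage points higher in siEIF1, from 4.81% ± 0.11 to 9.03% ± 0.17 (SD, n = 3). TPM2 held the largest share on this scale, 66.7% ± 0.45 in NC and 64% ± 0.85 in siEIF1. TPM1 held 23.8% ± 0.65 and 23.4% ± 0.59, and its libraries overlapped between the groups. TPM3 held 4.63% ± 0.49 in NC and 3.63% ± 0.28 in siEIF1. The summed FPKM of the 4 genes was 255.5 ± 10.2 in NC and 303.1 ± 9.71 in siEIF1, a ratio of 1.19. Without TPM4 the sums were 243.2 ± 9.85 and 275.7 ± 9.28, a ratio of 1.13.

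Which tropomyosin leads depends on the length by which the counts are divided. The lengths implied by the FPKM values tracked the union of all annotated exons of a gene (median ratio 1.22), which for TPM1, with 39 annotated transcripts, is 14700 bases against 1217 bases for its canonical transcript. Per kilobase of canonical transcript, TPM1 was at 841 ± 53.9 CPM and TPM2 at 556 ± 23.1 CPM in NC, so that their order was the opposite of that in FPKM. On that scale TPM1 held 55.9% ± 0.86 of the tropomyosin transcripts in NC and 54.1% ± 0.79 in siEIF1, and TPM2 held 37% ± 0.62 and 35% ± 0.81. The share of TPM4 was 4.99% ± 0.14 in NC and 9.25% ± 0.16 in siEIF1, close to its shares of FPKM. This scale was added after the data had been seen. The counts are per gene, and the isoforms of a tropomyosin gene were not separated.

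**Figure D2:**
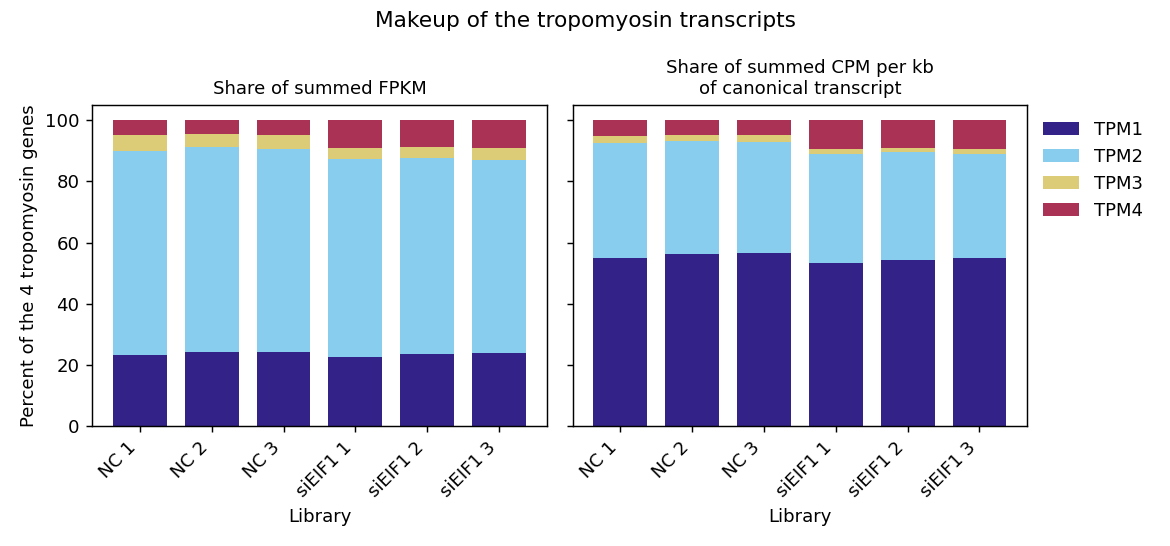
Percent of the 4 tropomyosin genes in each library, as shares of summed FPKM (left) and of summed CPM per kilobase of canonical transcript (right). TPM4 takes 4.69% to 4.9% of FPKM in the NC libraries and 8.86% to 9.21% in the siEIF1 libraries, while TPM2 leads on the left and TPM1 on the right.

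ACTA2, the smooth muscle alpha-actin on chr10:88935074-88991339 (minus strand), was at 11.34, 12.73 and 12.04 FPKM in NC and at 18.56, 19.4 and 18.11 FPKM in siEIF1. The groups did not overlap, and the log2 fold change was 0.66 (SE 0.062), a 1.57-fold difference. In bulk RNA, fewer cells of a type and less RNA per cell cannot be told apart, and the same holds for more cells with ACTA2 against more ACTA2 RNA per cell. STAMBPL1, FAS and ACTA2-AS1 lie across this gene on the opposite strand. Since the strand setting of the counting is not given in the sources used here, their reads may not be separated from those of ACTA2. FAS held 1291, 1459 and 1430 counts in NC and 1600, 1442 and 1563 in siEIF1, and its log2 fold change was 0.03 (SE 0.052).

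ACTB, the beta-cytoplasmic actin on chr7:5526409-5563902 (minus strand), was at 455.87, 479.5 and 489.02 FPKM in NC and at 627.33, 604.75 and 603.9 FPKM in siEIF1. All siEIF1 libraries were above all NC libraries, with a log2 fold change of 0.39 (SE 0.052). ACTG1, the gamma-cytoplasmic actin on chr17:81509413-81523847 (minus strand), was at 970.89, 1093.48 and 1057.48 FPKM in NC and at 1334.22, 1304.21 and 1221.86 FPKM in siEIF1. These groups did not overlap either, with a log2 fold change of 0.33 (SE 0.064). ACTB is often used as a reference gene, and here both cytoplasmic actins had a siEIF1 mean above the NC mean, by a factor of 1.29 for ACTB and 1.24 for ACTG1 in FPKM.

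GAPDH, the reference gene of the study's RT-qPCR, also differed in the same direction. It was at 1357, 1382.8 and 1344.97 FPKM in NC and at 1707.22, 1672.08 and 1592.65 FPKM in siEIF1, and it rose with a log2 fold change of 0.30 (SE 0.055, edgeR adjusted p = 0.00169). When the counts were scaled to GAPDH, the median log2 fold change of all tested genes was -0.299, against 0.0033 with TMM. On that scale the log2 fold change was 0.87 for TPM4, 0.35 for ACTA2, 0.08 (SE 0.045) for ACTB and 0.02 (SE 0.044) for ACTG1. Relative to the median of all genes, these 4 genes stood on the positive side on either scale. The ratio of ACTB to GAPDH within a library averaged 0.349 ± 0.014 in NC and 0.369 ± 0.0089 in siEIF1, and that of ACTG1 to GAPDH averaged 0.764 ± 0.042 and 0.776 ± 0.0079 (SD, n = 3). In both ratios the groups overlapped.

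Within the actins, the makeup differed little. ACTG1 held 68.1% ± 0.76 of the summed FPKM of the 3 actin genes in NC and 67.1% ± 0.73 in siEIF1, and ACTB held 31.1% ± 0.77 and 31.9% ± 0.73. The share of ACTA2 was 0.789%, 0.803% and 0.773% in NC and 0.937%, 1.01% and 0.982% in siEIF1. The ACTA2 share was thus the only one of the 3 whose groups did not overlap. The ratio of ACTB to ACTG1 within a library was 0.457 ± 0.016 in NC and 0.476 ± 0.016 in siEIF1, with overlapping libraries, while the ratio of ACTA2 to ACTG1 was 0.0116 ± 0.00016 and 0.0145 ± 0.00054 (SD, n = 3), with no overlap. The summed FPKM of the actins was 1527 ± 78.6 in NC and 1917 ± 68.8 in siEIF1, a ratio of 1.26.

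TAGLN was the only gene of the 10 whose libraries all lay lower in siEIF1. It encodes transgelin, an actin-binding protein of smooth muscle, on chr11:117199370-117207464 (plus strand). It was at 2.39, 2.76 and 2.79 FPKM in NC and at 2.0, 2.25 and 1.71 FPKM in siEIF1, from counts of 508, 634 and 622 against 503, 542 and 404. The groups were close and did not overlap, and the log2 fold change was -0.39 (SE 0.1), the largest error of the 9 tested genes. Set against the smooth muscle actin ACTA2, TAGLN was at an FPKM ratio of 0.211, 0.217 and 0.232 in NC and of 0.108, 0.116 and 0.0944 in siEIF1. In its canonical transcript 65.1% of the 100-base stretches are shared with an overlapping gene on the same strand (ENSG00000280143), to which 4 to 9 counts per library were assigned, so that how the reads of this stretch were divided is uncertain. PCSK7 overlaps TAGLN on the opposite strand and held between 676 and 908 counts per library.

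CNN1, the calponin of differentiated smooth muscle on chr19:11538767-11550323 (plus strand), was barely detected. It had 1, 1 and 3 counts in the NC libraries and 0, 2 and 1 counts in the siEIF1 libraries, 8 counts in all. Both groups were at or under a floor of 3 counts per library, and no fold change is given. MYL9, a regulatory light chain that is phosphorylated to switch on myosin II, lies on chr20:36541497-36551447 (plus strand). It was at 35.07, 44.39 and 41.66 FPKM in NC and at 42.74, 46.03 and 37.56 FPKM in siEIF1. The groups overlapped, and the log2 fold change of 0.08 (SE 0.091) became -0.22 (SE 0.083) under GAPDH scaling, -0.0075 without NC replicate 1 and -0.0039 without siEIF1 replicate 2. The ratio of MYL9 to ACTB was 0.0849 ± 0.0078 in NC and 0.0688 ± 0.007 in siEIF1 (SD, n = 3), lower in all 3 siEIF1 libraries than in any NC library.

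**Figure D3:**
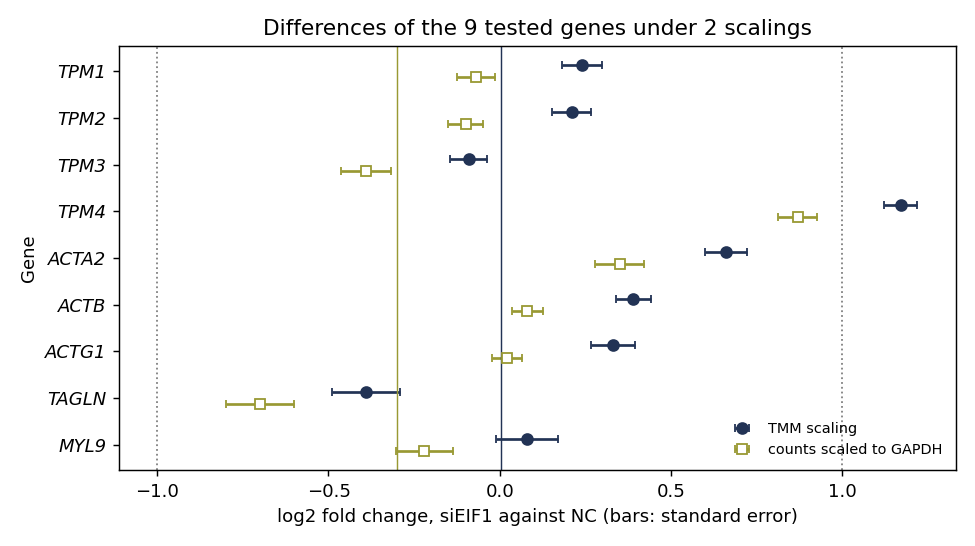
Log2 fold change (siEIF1 against NC, bars are standard errors) of the 9 tested genes with TMM scaling (filled circles) and with counts scaled to GAPDH (open squares); the solid vertical lines mark the median of all tested genes under each scaling and the dotted lines the fold limits. TPM1, TPM2 and MYL9 change sign between the scalings, and TPM4 lies past the upper fold limit with TMM only.

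Of the 9 tested genes, 6 were higher and 1 was lower in siEIF1 without overlap between the CPM of the groups, where 37.1% of all tested genes did not overlap (18.2% higher and 18.9% lower), and 2 overlapped (TPM3 and MYL9). The same 6 and 1 had an adjusted p under 0.05 without a fold limit, where 20.6% of all tested genes did, 10.2% higher and 10.4% lower. Among the 8028 genes with a mean count of at least 500, 28.6% did, 15.5% higher and 13.1% lower. Every tested gene of the 10 had a mean count of at least 536, so that the latter share is the nearer background. Scaled to GAPDH, 2 were higher and 3 lower at that limit, and with limma on log2(FPKM + 1) 0 were lower. The number past that limit lay between 5 and 7 when a library was left out. TPM1 did not pass it without NC replicate 1 and without siEIF1 replicate 2, TPM2 without NC replicate 1, NC replicate 3, siEIF1 replicate 1 or siEIF1 replicate 2, and TAGLN without NC replicate 2 or NC replicate 3. The median log2 fold change was 0.24 over the 9 genes and 0.0033 over all tested genes. Nothing is read from these counts, since the genes were chosen with this comparison known.

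By FPKM in NC, the order of the levels was ACTG1, ACTB, TPM2, TPM1, MYL9, TPM4, ACTA2, TPM3, TAGLN and CNN1. The NC ranges of TPM4 (11.84 to 12.75), ACTA2 (11.34 to 12.73) and TPM3 (10.98 to 12.58) overlapped, and those of the other neighbours did not. Per kilobase of canonical transcript the order in NC was another, with TPM1 above TPM2 and TPM4 (75 CPM) above MYL9 (49.6), ACTA2 (32.4) and TPM3 (30.9). The length implied by the FPKM of ACTA2 was 0.647 of its exon union, unlike the median ratio of 1.22. In siEIF1 the order by FPKM was the same as in NC, and TPM4, ACTA2 and TPM3 were apart, at means of 27.36, 18.69 and 10.98 FPKM.

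The genes most like TPM4 in their pattern over the 6 libraries were sought among 13382 other genes with a mean count of at least 50, by the root mean square difference of log2 CPM after centring each gene on its own mean. The nearest was NPBWR1, a neuropeptide receptor, at a difference of 0.122, with 0.53, 0.55 and 0.5 FPKM in NC and 1.14, 1.23 and 1.39 FPKM in siEIF1. KRT32, a hair keratin, and MMP24, a membrane-bound metalloproteinase, followed at 0.126 each, then the RNA-binding IGF2BP3 at 0.13 and PADI1, which converts arginine to citrulline in proteins, at 0.131. Their log2 fold changes lay between 0.96 for IGF2BP3 and 1.26 for NPBWR1, next to 1.17 for TPM4. None of the 5 is an actin or tropomyosin gene, and the likeness rests mainly on the step between the groups.

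Within a group, the libraries also differed in a shared way across these genes. Of the 9 tested genes, 8 were lowest of the NC group in NC replicate 1 and also lowest of the siEIF1 group in siEIF1 replicate 3, against 13% of all tested genes. The exception was TPM3, which was highest in both of those libraries. In replicate 2 of both groups 6 of the 9 genes were highest, against 11.7% of all tested genes. The spread was widest for TAGLN, whose log2 CPM lay between -0.24 and 0.22 of its group mean, and for MYL9, between -0.19 and 0.17. ACTB stayed between -0.054 and 0.034. These positions compare libraries within each group, which the choice of the genes did not use. The patterns named are, however, the most frequent ones among these same 9 genes. A share above that of all tested genes was favoured by picking them, and nothing is read from it. The 9 genes also share the libraries and are not replicates of one another.

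**Figure D4:**
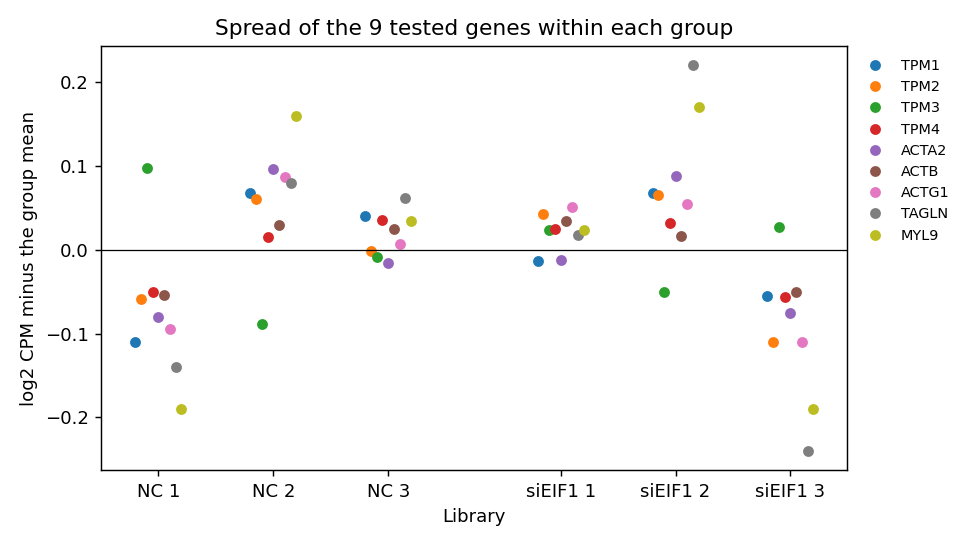
Log2 CPM of each of the 9 tested genes minus its group mean, by library. In NC replicate 1 and siEIF1 replicate 3 all genes but TPM3 lie under their group mean, with MYL9 at -0.19 in both and TAGLN at -0.24 in siEIF1 replicate 3.

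Few reads were assigned to annotated pseudogenes of ACTB, ACTG1 and TPM3, which does not measure reads of copies within the counts of these genes. The pseudogenes of ACTB held 28 counts over all libraries, against which ACTB held 512990, and those of ACTG1 held 176, set against 1010176. For TPM3 they held 415 counts, next to 36687 of TPM3, most of them in TPM3P9, at 55, 60 and 73 counts in NC and 60, 54 and 77 in siEIF1. In TPM4, 3.49% of the 100-base stretches of the canonical transcript occur in another gene, and in TPM1, TPM2, ACTA2, ACTG1, CNN1 and MYL9 none do. TPM1-AS, an antisense transcript at TPM1, held 8, 18 and 20 counts in NC and 20, 32 and 41 in siEIF1, against 25189 to 37120 counts of TPM1.

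Other genes of actin filaments and contraction were taken from 6 lists, with 79 genes in all, 77 of them listed and 69 tested. The lists, too, were chosen with earlier results of these data known, and the genes named from them are mostly those with the smallest p-values. Their adjusted p-values come from the fit over all genes and are given as a description. In siEIF1, 19 of the 69 rose, 4 fell and 46 did not pass an adjusted p of 0.05 (edgeR). The share past it was 33.3%, against 20.6% of all tested genes and 28.6% of those whose counts averaged 500 or more, as most genes of the lists did. By list, that share was 50% of 6 tested smooth muscle contractile genes, 42.9% of 14 for non-muscle myosin II and 35.7% of 14 for crosslinkers. It was 41.7% of 12 for the serum response factor list and 17.4% of 23 for filament turnover and capping, the last under both backgrounds. None of the 69 was called with the fold limit. With the replicate number as a block 36 passed, 28 of them higher and 8 lower. Scaled to GAPDH, 3 were higher and 42 lower, relative to a median of all genes of -0.299.

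Among the list of smooth muscle contractile genes, 3 of 6 tested rose and 0 fell (1 and 3 with counts scaled to GAPDH), and the median log2 fold change was 0.14. CNN2, a calponin of non-muscle cells, was at 30.28, 32.5 and 32.92 FPKM in NC and at 45.97, 46.03 and 46.35 FPKM in siEIF1. It rose with a log2 fold change of 0.55 (SE 0.048, edgeR adjusted p = 4.42e-06), in contrast to CNN1, which was near 0. The calponin CNN3 stood higher, at 179 FPKM in NC and 183 FPKM in siEIF1, and did not pass (log2 fold change 0.06, edgeR adjusted p = 0.476). CALD1, caldesmon, which competes with myosin for actin, rose by 0.23 (SE 0.05, edgeR adjusted p = 0.00572). LMOD1, a filament nucleator of smooth muscle, rose by 0.77 (SE 0.24, edgeR adjusted p = 0.0381) from a mean of only 36.5 counts. The defining smooth muscle genes MYH11, DES and MYOCD had mean counts of 9.17, 0.667 and 7 and were not tested. Among the 4 other actin isoforms none was tested, and the highest, ACTC1, had a mean count of 7.

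Of 14 tested genes for non-muscle myosin II and its regulators, 6 rose and 0 fell (0 and 7 with counts scaled to GAPDH, and 3 and 0 without NC replicate 1), with a median log2 fold change of 0.15. MYH9, the heavy chain of non-muscle myosin IIA, was at 113.7, 134.68 and 137.69 FPKM in NC and at 148.91, 169.32 and 181.01 FPKM in siEIF1, a log2 fold change of 0.39 (SE 0.079, edgeR adjusted p = 0.00341). MYL6, its essential light chain, rose by 0.35 (edgeR adjusted p = 0.00398). The light chain genes MYL12B and MYL12A, at 225 and 107 FPKM in NC against 40.37 for MYL9, did not pass (edgeR adjusted p = 0.622 and 0.955). MYLK, the kinase that phosphorylates MYL9, rose by 0.31 (edgeR adjusted p = 0.0124), and the small GTPase RHOB by 0.38 (edgeR adjusted p = 7.86e-04). Among 14 genes for actin crosslinkers and adhesion proteins of stress fibres, 5 rose and 0 fell (0 and 5 with counts scaled to GAPDH), with a median log2 fold change of 0.17. These included vinculin (VCL) at 0.23 (edgeR adjusted p = 0.00456), palladin (PALLD) at 0.26 (edgeR adjusted p = 0.00337), TGFB1I1 at 0.29 (edgeR adjusted p = 0.00215) and PDLIM7 at 0.17 (edgeR adjusted p = 0.0169). With the replicate block 9 rose and 1 fell in that list, and 3 rose without NC replicate 2 or without NC replicate 3.

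Of 23 genes for filament turnover and capping, 3 rose, 1 fell and 19 did not pass (0 rose and 18 fell with counts scaled to GAPDH), with a median log2 fold change of 0.01. WDR1, which helps cofilin disassemble filaments, rose by 0.40 (edgeR adjusted p = 5.59e-05), gelsolin (GSN), which severs and caps them, by 0.44 (edgeR adjusted p = 1.11e-04) and the monomer-binding TMSB10 by 0.27 (edgeR adjusted p = 0.00692). The formin DIAPH3, which elongates filaments, was at 2.85, 2.92 and 2.71 FPKM in NC and 1.92, 1.88 and 1.82 FPKM in siEIF1, a log2 fold change of -0.58 (edgeR adjusted p = 7.20e-05). With the replicate block 6 rose and 2 fell, and 5 rose without siEIF1 replicate 3.

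The serum response factor list holds the factor that binds the CArG box, its cofactors and targets that are not among the 10 genes. Of its 12 tested genes 2 rose and 3 fell (2 and 9 with counts scaled to GAPDH), with a median log2 fold change of -0.07. SRF itself was at 9.55, 10.01 and 9.96 FPKM in NC and at 7.36, 6.49 and 7.67 FPKM in siEIF1, and fell with a log2 fold change of -0.44 (edgeR adjusted p = 2.10e-04). ANKRD1, a target of mechanical signalling, had a log2 fold change of -0.40 (edgeR adjusted p = 1.54e-04). FHL2, a LIM-domain cofactor, rose by 0.80 (edgeR adjusted p = 6.43e-07), and ELK4, a ternary complex factor that binds beside SRF, by 0.59 (edgeR adjusted p = 4.00e-04).

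**Figure D5:**
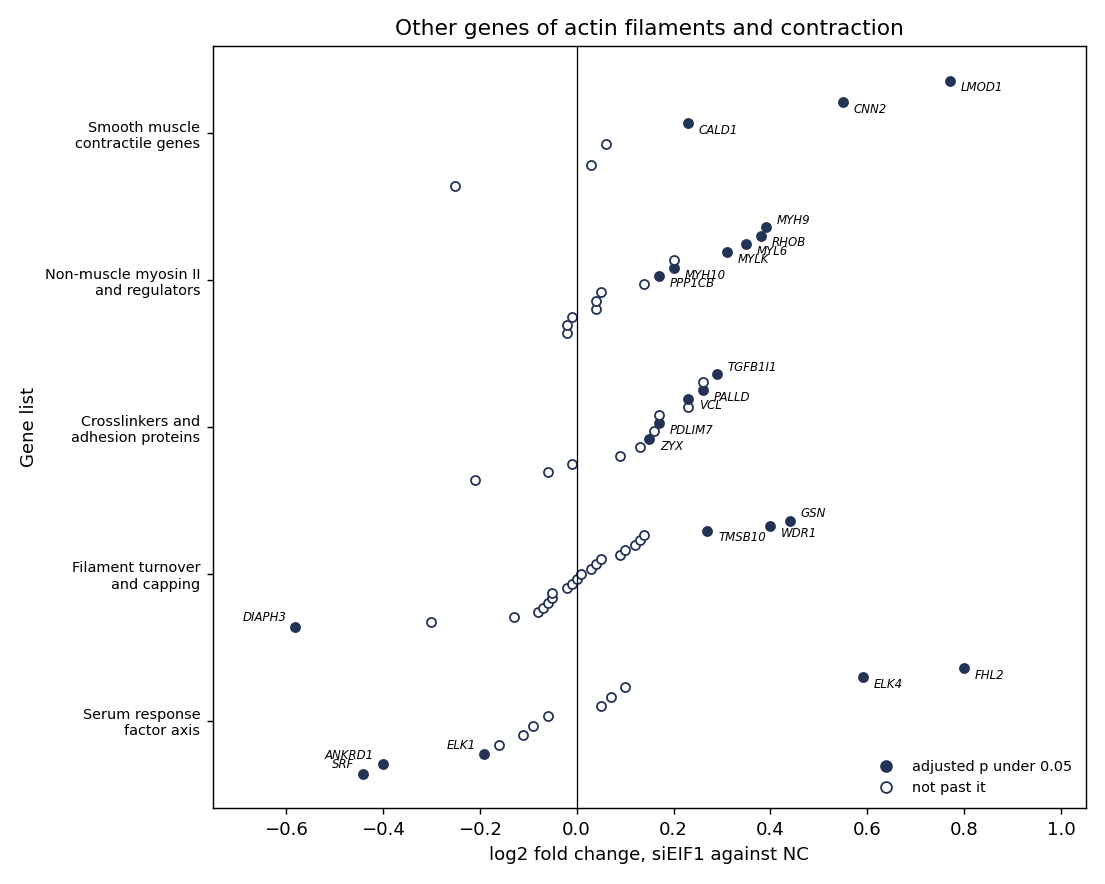
Log2 fold change (siEIF1 against NC, TMM scaling) of the 69 tested genes in the lists, 1 point per gene, filled where the adjusted p is under 0.05. The filled points of the first 3 lists all lie above 0, from 0.15 for ZYX to 0.77 for LMOD1, whereas the list of serum response factor has filled points from -0.44 for SRF to 0.80 for FHL2; with counts scaled to GAPDH, 42 genes of the lists were lower.

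The summed level of 8 smooth muscle and pericyte markers lay between 83.8 and 109 CPM in the NC libraries and between 119 and 146 CPM in the siEIF1 libraries. Most of this sum was PDGFRB alone, with a mean count of 2600, against 665 for MCAM and at most 36.5 for any other marker of the list. Of the 5 tested, PDGFRB (log2 fold change 0.60, edgeR adjusted p = 0.00176) and LMOD1 rose and MCAM fell (-0.28, edgeR adjusted p = 0.0159), while MYH11, DES and NOTCH3 had mean counts of at most 9.5. The share past an adjusted p of 0.05 was 60% of these 5, against 20.6% of all tested genes. No marker of this list was at 0 in all libraries. The part of these markers in the levels of ACTA2 and TPM4 was not tested. The 9 fibroblast markers summed to between 25.7 and 30.3 CPM in NC and between 25 and 26.7 CPM in siEIF1. Of the 3 tested, FAP, with a mean count of 574, fell (log2 fold change -0.26, edgeR adjusted p = 0.0361). COL1A1 (0.33, mean count 157) and POSTN (0.58, mean count 40.7) did not pass. The share past that limit was 33.3%, against 20.6% of all tested genes. The endothelial and leukocyte markers summed to at most 2.64 CPM in any library.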

How the data were processed

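PolyA RNA of 3 NC and 3 siEIF1 cultures was sequenced in 1 run as strand-specific paired 150 nt reads. The authors trimmed reads with FASTX-Toolkit, dropped reads under 16 nt, aligned the rest to GRCh38 with HISAT2 and deposited unnormalized counts of uniquely mapped reads per gene. The authors also deposited FPKM values, for 30275 of the 30618 counted genes. The counting program, strand setting and annotation release are not given in the sources used here. Libraries were grouped by sample title, and the symbols are those the files pair with the gene IDs.

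Fold changes were fitted on the whole count table with edgeR 4.0.16 (quasi-likelihood test, TMM, filterByExpr) under R 4.3.3, and p-values were adjusted over all tested genes by the Benjamini-Hochberg method. The standard error was derived from the F statistic. Called genes had an adjusted p under 0.05 and differed by a factor over 2 or under 0.5, as in the study's methods. DESeq2 1.42.0, which the study used, limma 3.58.1 on log2(FPKM + 1) and log2(FPKM + 0.1), other scalings and filters, a replicate block and leaving out each library were alternatives. The fits were tested on simulated data. Coordinates, exons and canonical transcripts came from GENCODE release 44 on GRCh38, whose gene ID versions for TPM1 and TPM3 differ from those in the files. CPM values used the summed counts of the tested genes times the TMM factor as library sizes.

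The genes described and the lists were chosen with earlier results of these data known. Named are the 10 genes, EIF1, GAPDH, up to 4 genes of a pathway list with the smallest p-values among those past an adjusted p of 0.05, the 5 genes nearest to TPM4 in profile and pseudogenes with a mean count of at least 50. Marker, overlapping and near-0 genes, ZYX, CNN3, MYL12A and MYL12B were named after their values were seen. Same-numbered NC and siEIF1 libraries deviated together from their group means (r = 0.177, 0.187 and 0.249 over 13383 genes, against -0.273 to 0.0633 for other pairs). These correlations are weak, and with 3 libraries per group they do not establish a pairing. No source says what same-numbered libraries share.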

Additional observations from a re-analysis of the deposited data

How the results depend on the processing

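TPM4, ACTA2, ACTB and ACTG1 kept a positive and TPM3 and TAGLN a negative log2 fold change under every alternative run, from 0.87 to 1.2 for TPM4, 0.35 to 0.70 for ACTA2, 0.08 to 0.41 for ACTB, 0.02 to 0.38 for ACTG1, -0.39 to -0.04 for TPM3 and -0.70 to -0.28 for TAGLN. Counts scaled to GAPDH gave 485 called genes in place of 286 and 0 of the 10 genes called in place of 1. They gave 45 pathway genes past an adjusted p of 0.05 in place of 23, and reversed TPM1 (-0.07), TPM2 (-0.10) and MYL9 (-0.22). GAPDH itself was higher in siEIF1 with TMM scaling, and which scaling is nearer to the RNA of these cells was not tested. At an adjusted p of 0.05 the split of all genes was 1702 higher and 1744 lower with TMM. With GAPDH it was 232 higher and 8767 lower, and without siEIF1 replicate 2 it was 1118 higher and 1124 lower. MYL9 lay between -0.0075 and 0.17 when a library was left out, and was negative without NC replicate 1 (-0.0075) or siEIF1 replicate 2 (-0.0039). With limma, 20 genes were called on log2(FPKM + 1) and 164 on log2(FPKM + 0.1), scales that shrink the fold change of low genes. DESeq2 called 36 genes as higher and a minimum of 10 counts in every library left 34, in place of 67, and TPM4 was called in both. With the replicate number as a block, 36 pathway genes passed, 298 genes were called, and the same number of the 10 genes (7) was past an adjusted p of 0.05. The block changed no other call of EIF1 or of the 10 genes. Leaving out a library gave 235 to 327 called genes, 44 to 93 of them higher (44 without NC replicate 1), and 17 to 27 pathway genes, with TPM4 called each time. The smaller number of libraries is part of these alternatives. As shares of CPM, without division by length, the differences between the groups were -2.45 percentage points for TPM1, -2.54 for TPM3, 7.26 for TPM4 and 0.134 for ACTA2. Per kilobase of canonical transcript they were -1.78 for TPM1 and -0.471 for TPM3, against -0.449 and -1.01 in FPKM. Precision is limited by depth for LMOD1 and CNN1, which have few counts.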
